A study of Mus musculus with 4 samples.

Results

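Cholesterol synthesis in brain endothelium was followed through 8 genes, chosen by name. They were 5 enzymes of the pathway (Hmgcs1, Idi1, Fdft1, Sqle and Lss), 2 genes that set its rate (Srebf2 and Insig1) and Ch25h, which converts cholesterol into an oxysterol. All 8 symbols were found, among 55487 genes in the count tables. Transcripts had been counted in single cells of mouse brain after enrichment for endothelial cells (ECs), in 4 droplet libraries with 1 library for each group. Each transcript molecule was counted once by its unique molecular identifier (UMI).

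There was a young and an old group of each genotype, WT Cre and EC-K4KO. WT Cre mice carried Cre under the Cdh5 (VE-cadherin) promoter, and EC-K4KO mice carried that Cre with floxed Klf4. Both genotypes were on a C57BL/6J background, with littermates as controls, and the labels give their ages only as young and old, with no sex for the animals of these libraries. By the study's methods tamoxifen was given to induce Cre, while the labels record no drug. Cdh5 drives Cre in endothelium throughout the body, so the cross did not restrict the intended deletion to the brain. How many animals contributed to each library is not given in the sources used here. With 1 library per group, differences between groups cannot be told apart from differences between single preparations.

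Animal cells make cholesterol from acetyl-CoA by the mevalonate pathway. Hmgcs1 supplies its early intermediate, Idi1 isomerises the isoprenoid building block, Fdft1 joins isoprenoids into squalene, Sqle oxidises squalene and Lss closes it into the first sterol. The transcription factor encoded by Srebf2 is held in the endoplasmic reticulum while sterols are plentiful, and is released to switch on most genes of the pathway when sterols fall. Insig1 encodes the protein that holds it back and is itself among its targets. Ch25h encodes the cholesterol hydroxylase whose oxysterol product favours retention of that factor, and the gene is induced by interferon and other inflammatory signals in several cell types. The brain makes nearly all of its own cholesterol because the blood-brain barrier keeps out lipoproteins, and glia are its main producers.

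The 250 bases before the transcription start annotated by RefSeq are shown for the 3 genes that passed the test with age (Insig1, Idi1 and Ch25h) and for Hmgcs1 and Srebf2, which did not. The sequences are those of RefSeq on GRCm38.p6, read along the strand of the gene. Capitals mark matches on either strand to TCACCCCA (the core of a sterol element), CCAAT (the box read by NF-Y, a common partner of the sterol factor), TGACGTCA (the cAMP response element) and CCACCC (a box of the kind read by Krüppel-like factors). RefSeq's table held 6 of the 8 genes; Sqle and Fdft1 are named only.
Hmgcs1: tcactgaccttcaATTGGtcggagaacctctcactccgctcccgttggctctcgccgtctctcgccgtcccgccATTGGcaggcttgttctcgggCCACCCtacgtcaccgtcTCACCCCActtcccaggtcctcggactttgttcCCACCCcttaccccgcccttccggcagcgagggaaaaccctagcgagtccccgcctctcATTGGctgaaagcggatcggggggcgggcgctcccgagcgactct
Idi1: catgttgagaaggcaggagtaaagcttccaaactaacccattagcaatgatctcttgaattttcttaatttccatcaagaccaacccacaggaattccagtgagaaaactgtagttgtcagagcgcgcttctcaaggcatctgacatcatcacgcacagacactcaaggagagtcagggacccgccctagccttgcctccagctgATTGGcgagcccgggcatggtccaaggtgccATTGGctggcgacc
Insig1: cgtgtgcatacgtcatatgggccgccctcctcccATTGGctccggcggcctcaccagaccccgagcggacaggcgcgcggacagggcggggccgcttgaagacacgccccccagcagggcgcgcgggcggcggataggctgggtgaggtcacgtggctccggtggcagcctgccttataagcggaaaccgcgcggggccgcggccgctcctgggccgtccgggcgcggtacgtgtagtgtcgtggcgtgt
Srebf2: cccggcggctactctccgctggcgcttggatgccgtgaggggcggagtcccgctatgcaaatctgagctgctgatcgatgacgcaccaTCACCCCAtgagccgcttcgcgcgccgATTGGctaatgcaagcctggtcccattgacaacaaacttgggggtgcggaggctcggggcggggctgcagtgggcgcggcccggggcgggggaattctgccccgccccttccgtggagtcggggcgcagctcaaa
Ch25h: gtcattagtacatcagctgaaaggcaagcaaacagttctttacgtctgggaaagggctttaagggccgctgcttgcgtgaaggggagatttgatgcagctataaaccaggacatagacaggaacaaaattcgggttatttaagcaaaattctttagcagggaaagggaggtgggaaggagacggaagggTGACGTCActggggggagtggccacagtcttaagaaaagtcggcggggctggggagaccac

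In GENCODE M21 on GRCm38 the gene bodies are at chr13:119690379-119708260 (Hmgcs1), chr13:8885501-8892451 (Idi1), chr14:63145150-63179578 on the minus strand (Fdft1), chr15:59315077-59331192 (Sqle), chr10:76531588-76557138 (Lss), chr15:82147181-82205379 (Srebf2), chr5:28071363-28078662 (Insig1) and chr19:34473778-34475164 on the minus strand (Ch25h). The windows shown lie at chr13:119690101-119690350 for Hmgcs1, chr13:8885356-8885605 for Idi1, chr5:28071162-28071411 for Insig1 and chr15:82147019-82147268 for Srebf2, all on the plus strand, and at chr19:34475149-34475398 on the minus strand for Ch25h. RefSeq and GENCODE place the starts differently, so that the last 105 bases of the window of Idi1, 88 of Srebf2, 49 of Insig1 and 16 of Ch25h lie inside the GENCODE gene, while that of Hmgcs1 ends 28 bases before it. Both matches in Idi1 lie in that inner part, and no match of the other genes does. The sterol element core was present once in Hmgcs1 and once in Srebf2, and in 1.34% of 32851 promoters of the same length. CCAAT was found in all 5 of the synthesis and control genes in the table, 3 times in Hmgcs1, and in 33.8% of promoters. Ch25h held none of these, but a single cAMP response element 61 to 54 bases before its start, a motif of 1.55% of promoters. CCACCC was found 2 times in Hmgcs1 and once in Lss, against 28.1% of promoters, and not in Ch25h. The matches are of letters only, and the motifs were chosen after some of these sequences had been seen.

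The targeted gene was examined before the members. In endothelial-like cells Klf4 stood at 1711 CPM (UMIs per 1000000 UMIs of the same cells) in young WT Cre, at 2100 CPM in old WT Cre, and at 3274 and 3294 CPM for the young and old libraries labelled EC-K4KO. Both libraries labelled EC-K4KO were therefore higher than either WT Cre library, which goes against the label of a deletion. The study's supplement describes a separate check of the deletion after tamoxifen. It used quantitative PCR and western blots of brain endothelial cells isolated from adult mice. The parts of Klf4 that are floxed, and the part of the transcript that was read, are not given in the sources used here, so that UMIs could lie outside the deleted part. Directions by genotype below are directions of the label.

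After filtering, 20737 cells remained, 4146 to 6555 per library, from libraries of 30655769 to 88812581 UMIs. Endothelial-like cells numbered 10103, 1897 to 3315 per library, and all 8 endothelial markers were detected in every library. Their largest cluster was led by Hmcn1 and Cxcl12 in 3 libraries (432 to 1069 cells), but in old WT Cre by Krt14 (543 cells, against 454). Markers of smooth muscle and pericytes summed to 103 to 236 and 56.5 to 190 CPM in them, against 15754 to 17978 CPM for the endothelial markers. Their median depth ran from 3772 UMIs per cell in the old to 9900 in the young library labelled EC-K4KO. Between 7 and 42 barcodes were shared by any pair of libraries. Across 8434 genes at 10 CPM or more, the median log2 ratio of old over young was -0.18 in WT Cre and -0.15 in EC-K4KO. A member with a ratio near 0 therefore stood slightly above the typical gene.

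**Figure D1:**
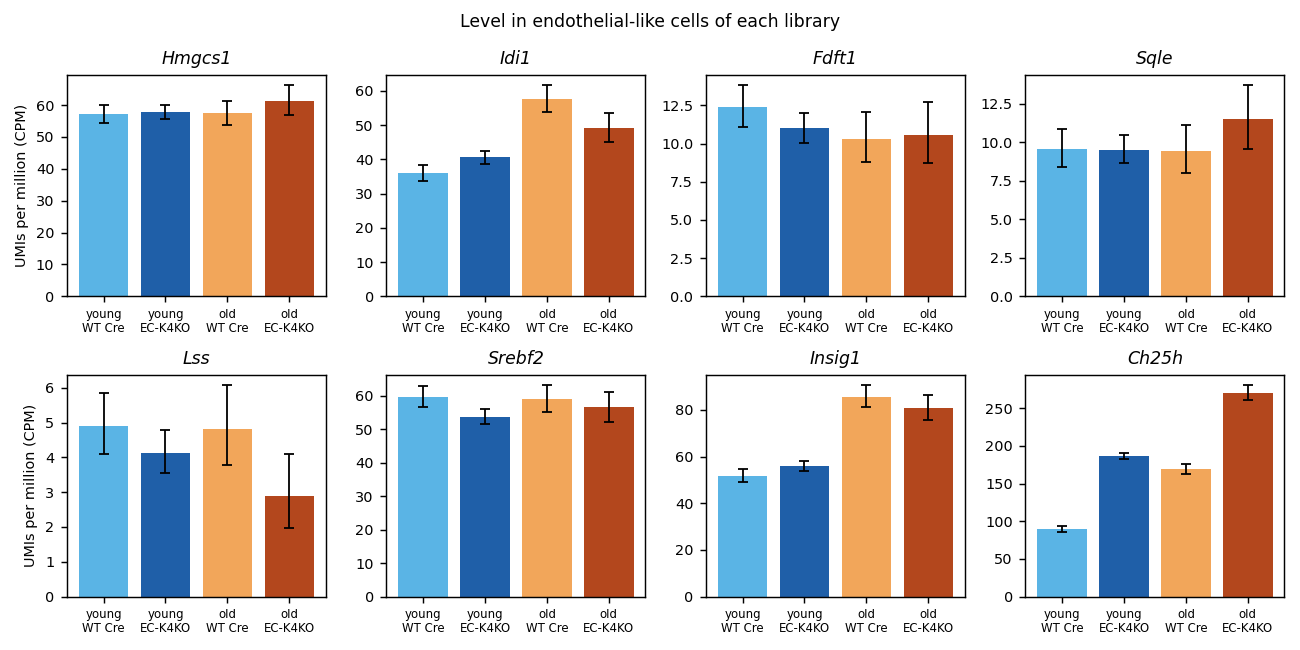
Bars give the level of each member in endothelial-like cells of the 4 libraries, in CPM, with exact Poisson intervals at 95% that cover counting error only. Insig1 and Idi1 are higher in both old libraries than in both young ones, Ch25h is lowest in young WT Cre and highest in the old library labelled EC-K4KO, and for Hmgcs1, Fdft1 and Sqle the intervals of all 4 bars overlap.

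Hmgcs1, the synthase of the early pathway, differed little between libraries in endothelium. Its level was 57.1 CPM in young WT Cre and 57.4 in old WT Cre, against 57.8 and 61.4 for the young and old libraries labelled EC-K4KO. The intervals of all 4 libraries overlapped. The log2 ratio of old over young was 0.01 in WT Cre (interval -0.12 to 0.13) and 0.09 between the libraries labelled EC-K4KO (interval -0.04 to 0.21). In the model with terms for age and label over the 4 libraries (edgeR quasi-likelihood, scaled to the typical gene) the age term was 0.19 ± 0.07 (SE), with an adjusted p of 0.0947. These 4 libraries did not resolve a difference of that size.

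Idi1, the isomerase, was higher in old endothelium. Its level was 36.0 CPM in young and 57.7 in old WT Cre, and 40.6 and 49.0 in the young and old libraries labelled EC-K4KO. The old libraries lay above the young ones with no overlap of intervals. Idi1 rose with age by 0.63 ± 0.11 on the log2 scale (edgeR, adjusted p = 0.00534). The ratio was larger in WT Cre, at 0.68 (interval 0.55 to 0.82), than between the libraries labelled EC-K4KO, at 0.27 (interval 0.13 to 0.41). With clustering at resolution 2 the age term was 0.59 ± 0.13 and did not pass (edgeR, adjusted p = 0.0689, the highest of 10 fits, of which 9 passed).

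The later enzymes were present at low levels. Fdft1, the squalene synthase, ranged from 10.3 to 12.4 CPM over the 4 libraries. Its age term was -0.02 ± 0.13 (edgeR, adjusted p = 0.948). Fdft1 overlaps Ctsb, which is transcribed from the opposite strand and had 69066 UMIs against 3850 for Fdft1, and strand handling in the counting is not given in the sources used here. Sqle, the epoxidase, ranged from 9.46 to 11.5 CPM, with an age term of 0.27 ± 0.14 (edgeR, adjusted p = 0.215). Lss, the cyclase, had the fewest UMIs, 31 to 178 per library, and stood at 4.91, 4.13, 4.83 and 2.90 CPM in the order of young WT Cre, the young library labelled EC-K4KO, old WT Cre and the old library labelled EC-K4KO, called the library order below. The last value gave a log2 ratio of -0.72 against old WT Cre (interval -1.39 to -0.11), while the label term over both ages did not pass (edgeR, log2 -0.40 ± 0.22, adjusted p = 0.574).

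Of the genes that set the rate, Insig1 moved and Srebf2 did not pass the test. Srebf2 stood at 59.7, 53.7, 59.1 and 56.5 CPM in library order, and its age term was 0.18 ± 0.07 (edgeR, adjusted p = 0.125). On the scale of plain CPM the ratios of old over young were -0.01 in WT Cre (interval -0.14 to 0.11) and 0.07 between the libraries labelled EC-K4KO (interval -0.06 to 0.20). Insig1, which retains the Srebf2 product, stood at 51.9 CPM in young WT Cre and 85.7 in old WT Cre, against 55.9 and 80.9 for the young and old libraries labelled EC-K4KO. Both old libraries lay well above both young ones. Insig1 rose with age by 0.78 ± 0.08 on the log2 scale (edgeR, adjusted p = 0.000454), with ratios of 0.72 (interval 0.61 to 0.84) in WT Cre and 0.54 (interval 0.42 to 0.65) between the libraries labelled EC-K4KO.

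Ch25h, the oxysterol enzyme, was higher both in old libraries and in libraries labelled EC-K4KO. Its level was 89.2 CPM in young and 169 in old WT Cre, and 186 and 270 in the young and old libraries labelled EC-K4KO. Young WT Cre was the lowest of the 4, and the young library labelled EC-K4KO lay above old WT Cre. Ch25h rose with age by 0.87 ± 0.10 (edgeR, adjusted p = 0.000822) and with the label by 0.90 ± 0.10 (adjusted p = 0.00536). The label call was lost with clustering at resolution 2 (log2 0.85 ± 0.14, edgeR adjusted p = 0.235), with adjusted p from 1.23e-22 to 0.235 over 10 fits. The label ratio was 1.06 (interval 0.99 to 1.13) among young and 0.68 (interval 0.60 to 0.75) among old libraries. The age ratio was 0.92 (interval 0.84 to 1.00) in WT Cre and 0.54 (interval 0.48 to 0.60) between the libraries labelled EC-K4KO. The age and label comparisons share libraries, so they are not separate observations. The venous cluster led by Ackr1, where Ch25h was highest, made up 4.09%, 7.15%, 7.75% and 8.33% of endothelial-like cells in library order, and 11.3%, 15.4%, 18.3% and 19.2% of their UMIs. Its share was lowest in young WT Cre, as was Ch25h. Without that cluster, a setting added after the data were seen, Ch25h passed with age (log2 1.45 ± 0.08, edgeR adjusted p = 7e-09) and with the label (0.83 ± 0.08, adjusted p = 2.03e-05). The part of the cluster mix in the Ch25h values was not tested.

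**Figure D2:**
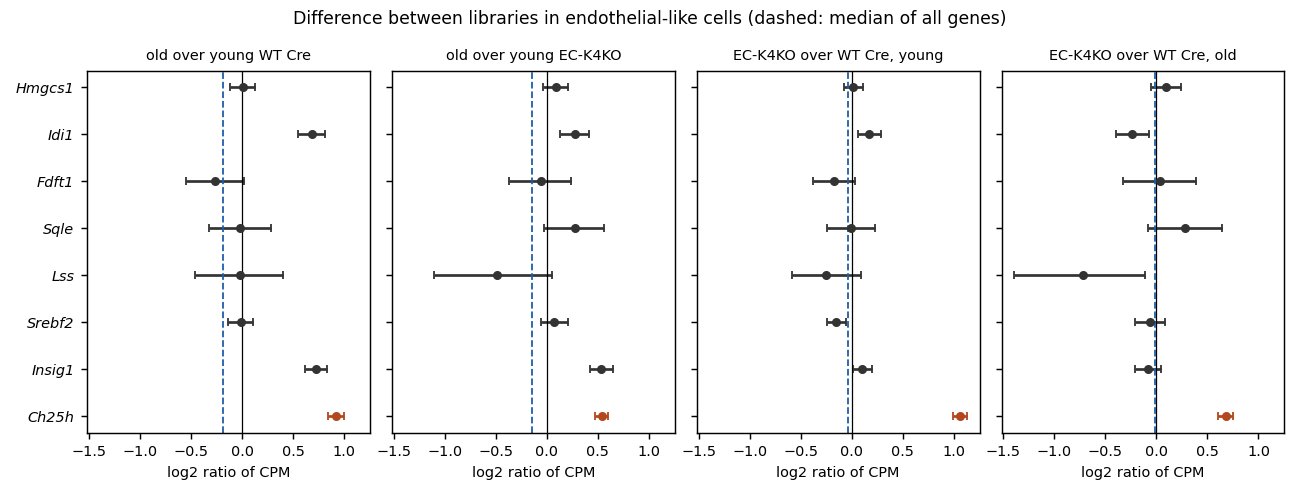
Points give log2 ratios of CPM between libraries in endothelial-like cells for the 8 members, with exact conditional intervals at 95%; the dashed line is the median of 8434 genes and the solid line is 0. Insig1 and Idi1 stand to the right of 0 in both age comparisons and lie closer to 0 in both label comparisons, and Ch25h stands to the right in all 4.

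In the model, 3 of the 8 members passed with age (Insig1, Idi1 and Ch25h), all higher in old libraries, while 18.3% of 14927 genes passed, 11.1% higher. With the label 1 of 8 passed, Ch25h, against 1.61% of genes, 0.904% higher. The model had 1 residual degree of freedom among 4 libraries, and in simulated counts 26 of its 226 calls were false. By size alone, 3 members were at least 0.5 higher in old than young WT Cre, against 5.28% of 8434 genes, and 2 between the libraries labelled EC-K4KO, against 5.41%. None was 0.5 or more lower with age, against 11.2% and 9.66% of genes, although Lss, at -0.49 between the libraries labelled EC-K4KO (interval -1.11 to 0.05), fell just short of the mark. For the label, 1 member was at least 0.5 higher among young libraries and 1 among old libraries, against 1.78% and 2.05%, and by the same mark 0 were lower among young ones, against 1.65%, and Lss among old ones, against 1.87%. The 8434 genes averaged at least 10 CPM, and Lss, below that level, was not among them. Over the 7 members other than Ch25h, the median log2 ratio was -0.01 for old over young WT Cre, 0.09 for old over young EC-K4KO, -0.01 for the label among young and -0.06 among old libraries. Both label medians moved when cells were thinned, as given in the closing section. In the model, the median age term of the 8 members was 0.23, against -0.02 for all genes.

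Genes encoding transcripts of the early response to stress and dissociation also differed with age in these cells. Of 15 such genes, 9 rose with age in the model (Atf3, Fosb, Zfp36, Jund, Junb, Socs3, Hspa1b, Hspa1a and Ier3), beside 11.1% of all genes, and none passed with the label by edgeR (4 at an unadjusted p under 0.05), beside 1.61% of all genes. Their summed level was 15377 CPM in young WT Cre and 26532 in old WT Cre, against 19837 and 23829 for the young and old libraries labelled EC-K4KO. None of the 15 was at 0 in any library, and the most abundant were Junb (3445 CPM on average), Ier3 (3352), Jun (2471) and Fos (2022). Genes of reactive venous endothelium moved as well: all 8 listed (Ackr1, Vwf, Vcam1, Icam1, Selp, Sele, Lcn2 and Lrg1) rose with age, beside 11.1% of all genes, and 3 of 8 (Ackr1, Lcn2 and Lrg1) with the label, beside 0.904%. Their sums were 1004, 1162, 2287 and 3204 CPM in library order, and none was at 0. The part of either list in the values of Insig1, Idi1 and Ch25h was not tested. With every cell thinned to 1000 UMIs, the age terms were 0.88 for Insig1, 0.78 for Idi1 and 0.83 for Ch25h, and the label term of Ch25h was 1.26, all past the threshold.

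The rest of the pathway was mixed. At an unadjusted p under 0.05 for age (edgeR) were 9 of 14 other synthesis enzymes, beside 5084 of 14927 genes. The median age term of the 14 was 0.24. None passed with the label by edgeR (0 at an unadjusted p under 0.05). After adjustment 3 of the 14 rose with age, beside the 11.1% of all genes that did, and none fell. The 3 were Fdps, which makes farnesyl diphosphate (45.3 CPM on average over libraries, age log2 0.29 ± 0.08, edgeR adjusted p = 0.0324), Pmvk, the phosphomevalonate kinase (49.1 CPM, 0.32 ± 0.08, adjusted p = 0.0236), and Msmo1, a sterol oxidase (52.3 CPM, 0.38 ± 0.08, adjusted p = 0.0143). Ebp, the sterol isomerase with the highest mean of the list at 54.7 CPM, had an age log2 of 0.18 (edgeR, adjusted p = 0.130). On the scale of plain CPM, 9 of the 14 averaged at least 10 CPM. Of these, 6 were above 0 and 3 below for old over young WT Cre, at a median log2 ratio of 0.12. Between the libraries labelled EC-K4KO 5 were above and 4 below, at a median of 0.01. Under 10 CPM, Nsdhl, Dhcr7 and Tm7sf2 were lower in both old libraries than in both young ones, and Hsd17b7 and Mvd were higher.

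Genes of sterol sensing, transport and export passed with age in both directions, at a share not far from that of all genes. Of 15 genes, 2 rose with age (Soat1, which esterifies cholesterol, and Mylip, an ubiquitin ligase that degrades lipoprotein receptors). Another 2 fell (Mbtps1, a protease that activates sterol factors, and Abcg1, a cholesterol exporter), beside 18.3% of all genes passing in either direction. At an unadjusted p under 0.05 for age (edgeR) were 9 of the 15, beside 5084 of 14927 genes. Mylip, induced by oxysterol receptors, was at 36.0, 42.3, 61.8 and 61.1 CPM in library order (age log2 0.80 ± 0.09, edgeR adjusted p = 0.000624), and Abcg1, induced by the same receptors, was at 19.3, 22.3, 13.6 and 10.6 CPM in that order (age log2 -0.63 ± 0.15, adjusted p = 0.0245). None of the 15 passed with the label by edgeR, beside 1.61% of all genes (2 at an unadjusted p under 0.05, beside 1724 of 14927). Soat1 had an age log2 of 0.67 ± 0.16 (edgeR, adjusted p = 0.0213) at 8.10 CPM on average, and Mbtps1 one of -0.37 ± 0.09 (adjusted p = 0.0232) at 32.7 CPM. The most abundant were Npc2 (180 CPM on average), Scarb1 (148 CPM), Stard4 (73.2 CPM) and Abca1 (56.4 CPM), and none of these 4 passed with age. Other genes of oxysterol metabolism, and the oxysterol receptor Gpr183, were nearly absent: Cyp7b1, Cyp27a1, Cyp46a1, Hsd3b7 and Gpr183 each averaged 0.210 to 1.04 CPM, 4 of the 5 could be tested, and none passed with age or label by edgeR, with 1 and 0 at an unadjusted p under 0.05.

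Vessel segments were set apart by sub-clustering endothelial-like cells with the 8 members and the lists above left out of the genes used. The venous cells fell in 2 clusters, one led by Ackr1 and the other by Cyp2e1. Segments were rebuilt from the same cells, so differences between them are a description. Ch25h was highest in the venous cluster led by Ackr1 in every library, at 590, 977, 654 and 942 CPM in library order. It was 46.2, 123, 108 and 347 CPM in the venous cluster led by Cyp2e1, 35.8, 41.0, 91.2 and 134 CPM in arterial cells, and 11.3, 17.6, 23.1 and 49.1 CPM in capillary cells. From 66.9% to 80.6% of the endothelial Ch25h UMIs of a library came from the cluster led by Ackr1, which held 4.09% to 8.33% of endothelial-like cells. These cells were also deeper than those of the other named segments in each library, with medians of 11023 to 25356 UMIs.

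**Figure D3:**
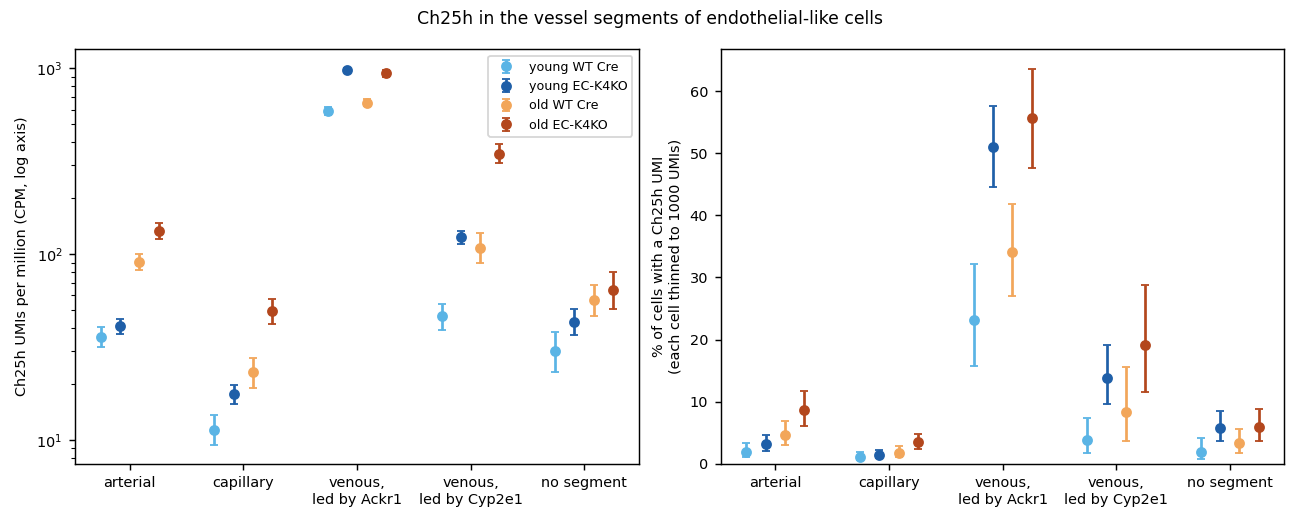
Points give Ch25h in each vessel segment and library as CPM on a log axis (left) and as the share of cells with a Ch25h UMI after thinning every cell to 1000 UMIs (right), with exact intervals at 95%. The cluster led by Ackr1 is highest in each library in both panels. On the CPM axis its old and young points lie close together while those of arterial and capillary cells are spread apart.

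The difference with age was not alike in all segments. In the cluster led by Ackr1, Ch25h was 0.15 higher in old than young WT Cre on the log2 scale (interval 0.05 to 0.25) and -0.05 between the libraries labelled EC-K4KO (interval -0.13 to 0.02). In arterial cells the ratios were 1.35 (interval 1.11 to 1.58) and 1.70 (interval 1.51 to 1.90). In capillary cells they were 1.03 (interval 0.64 to 1.41) and 1.48 (interval 1.19 to 1.76), and in the cluster led by Cyp2e1 their intervals were 0.87 to 1.59 and 1.29 to 1.70. The low and high ratios did not overlap in counting error; with 1 library per group the difference between segments was not tested. With both venous clusters left out, the age term for Ch25h rose to 1.59 ± 0.09 (edgeR, adjusted p = 6.8e-06).

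The label showed another order of segments. Ratios were largest in the venous cluster led by Cyp2e1, at 1.41 (interval 1.16 to 1.68) among young and 1.68 (interval 1.36 to 2.01) among old libraries. In the cluster led by Ackr1 they were 0.73 (interval 0.65 to 0.81) and 0.53 (interval 0.43 to 0.62), in capillary cells 0.63 (interval 0.32 to 0.96) and 1.09 (interval 0.74 to 1.44), and in arterial cells 0.19 (interval -0.03 to 0.42) and 0.55 (interval 0.35 to 0.75). Without the venous clusters the label term was 0.54 ± 0.09 (edgeR, adjusted p = 0.0153), and in arterial cells alone, a setting added after the data were seen, it was 0.40 ± 0.11 and did not pass (adjusted p = 0.0601).

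Measured as cells, Ch25h followed the same order. After thinning to 1000 UMIs, 2.52% of endothelial-like cells held a Ch25h UMI in young and 5.52% in old WT Cre, and 6.79% and 10.1% in the young and old libraries labelled EC-K4KO. Before thinning the shares were 13.5%, 22.5%, 19.1% and 23.7% in library order. In the cluster led by Ackr1 the thinned shares were 23.2%, 51.1%, 34.1% and 55.7% in that order. Smooth muscle-like cells, which served as the background of free RNA, gave thinned shares of 0%, 0.504%, 0% and 0% in library order (median depths 5490 to 9052 UMIs), where 0 of 486, 571 and 295 cells allow up to 0.617%, 0.525% and 1.02%. The endothelial shares were above this background in every library, while intervals and limits cover counting error only. Oligodendrocyte-like cells, the class first planned as background, gave 0% in the libraries with enough cells. Pericyte-like cells gave 0.952%, 1.42%, 0.450% and 1.55% in library order, and border macrophage-like cells 0%, 3.70%, 4.12% and 3.77%. Capillary cells gave 1.14%, 1.46%, 1.74% and 3.42%, and the part of free RNA in their values was not tested.

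**Figure D4:**
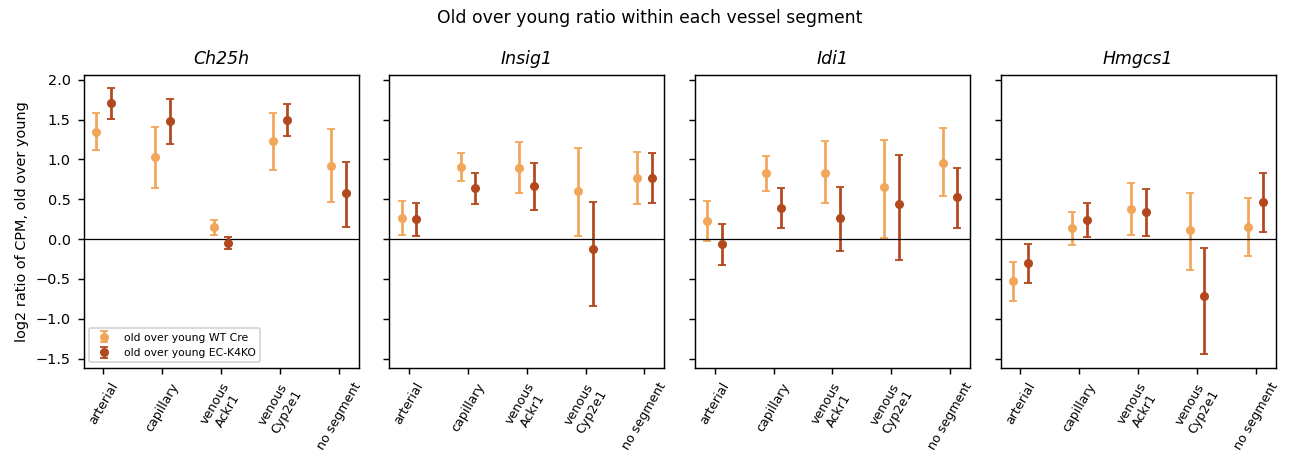
Points give the log2 ratio of old over young CPM within each vessel segment for Ch25h, Insig1, Idi1 and Hmgcs1, in WT Cre and between the libraries labelled EC-K4KO, with exact conditional intervals at 95%. Ch25h is near 0 in the venous cluster led by Ackr1 and above 1 in arterial and capillary cells, Insig1 and Idi1 are lower in arterial than in capillary cells, and Hmgcs1 is below 0 in arterial cells in both comparisons.

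Insig1 and Idi1 had another distribution over segments. Insig1 in capillary cells was 53.7 CPM in young WT Cre and 101 in old WT Cre, against 54.9 and 85.3 for the young and old libraries labelled EC-K4KO. Its age ratios there were 0.91 (interval 0.73 to 1.08) and 0.64 (interval 0.44 to 0.83), against 0.26 and 0.25 in arterial cells. Fitted on capillary, arterial or venous cells alone, settings added after the data were seen, Insig1 rose with age in each (log2 0.91, 0.41 and 0.98; edgeR adjusted p = 0.000228, 0.00859 and 5.02e-07). With the venous clusters taken apart, the age ratios of Insig1 were 0.89 (interval 0.58 to 1.22) in WT Cre and 0.66 (interval 0.36 to 0.95) between the libraries labelled EC-K4KO in the one led by Ackr1. In the one led by Cyp2e1 they were 0.61 (interval 0.04 to 1.14) and -0.13 (interval -0.84 to 0.47), the last from 31.5 CPM when young and 28.3 CPM when old, on 24 UMIs. Idi1 in capillary cells was 37.1, 38.3, 65.8 and 50.2 CPM in library order. By edgeR it passed with age in capillary and venous cells (log2 0.75 and 0.84, adjusted p = 0.00313 and 8.35e-05) but not in arterial cells (log2 0.24, adjusted p = 0.213). In arterial cells Idi1 was at 44.2, 55.0, 51.8 and 52.6 CPM in the same order. It was thus not higher there in the old than in the young library labelled EC-K4KO. The difference between the segments was not tested.

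Hmgcs1 differed in sign between segments. In arterial cells it was at 67.2 and 70.0 CPM in the young libraries (WT Cre and labelled EC-K4KO) and at 46.5 and 56.8 CPM in the old ones, with age ratios of -0.53 (interval -0.78 to -0.29) and -0.30 (interval -0.54 to -0.07). In capillary cells, the largest segment, it was at 56.2 and 57.2 CPM when young and 61.7 and 67.6 CPM when old, with ratios of 0.13 (interval -0.07 to 0.34) and 0.24 (interval 0.03 to 0.45), and did not pass (log2 0.32 ± 0.10, edgeR adjusted p = 0.0666). In venous cells it was at 46.8 and 47.7 CPM when young and 60.2 and 53.1 CPM when old, and there it rose with age in the model (log2 0.44 ± 0.12, edgeR adjusted p = 0.0105), while the arterial fit did not pass (log2 -0.26 ± 0.12, adjusted p = 0.139). Sqle also rose in venous cells (log2 0.92 ± 0.26, adjusted p = 0.0127), from 6.85 and 6.87 to 10.5 and 12.4 CPM, on 36 to 81 UMIs per library. Cells of the cluster led by Ackr1 were 112 of 324, 237 of 461, 167 of 264 and 158 of 247 venous cells in library order. In that cluster Hmgcs1 was at 50.02, 51.0, 65.1 and 64.3 CPM in the same order, and Sqle at 6.55, 6.79, 11.6 and 13.6 CPM. In the cluster led by Cyp2e1, Hmgcs1 was at 44.1, 43.5, 47.5 and 26.0 CPM, with age ratios of 0.12 (interval -0.39 to 0.58) and -0.72 (interval -1.45 to -0.11), the last value resting on 22 UMIs, and Sqle at 7.11, 6.97, 7.60 and 9.45 CPM, on 8 UMIs in each old library. The part of the cluster mix in the venous calls was not tested. Among venous cells alone, 5 of 8 members passed with age, against 16.7% of 11930 genes. Srebf2, Fdft1 and Lss passed in none of the 3 segments.

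Across the brain's cells the synthesis genes were highest in astrocyte-like cells, and Ch25h in endothelium. Levels were summed for 17 classes with at least 50 cells in a library, each named from its markers or, where markers failed, by its leading genes. Hmgcs1 was highest in astrocyte-like cells, with a mean of 424 CPM over 4 libraries (range 370 to 497). Choroid plexus epithelial-like cells came next at 409 CPM (2 libraries, 371 to 447), then oligodendrocyte-like cells at 302 CPM (3 libraries, 225 to 380), and these first 3 overlapped in range. Oligodendrocyte precursor-like, neuron-like, fibroblast-like and ependymal-like cells, each in 1 library, lay between 216 and 288 CPM. Endothelial-like cells ranked 10th at 58.4 CPM (57.1 to 61.4), between smooth muscle-like cells (53.9 to 80.4), whose range overlapped theirs, and the unnamed cluster led by Hba-a1 and Hba-a2 (35.5 to 52.2), whose range did not. Microglia-like cells were at 24.0 to 28.1 CPM.

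**Figure D5:**
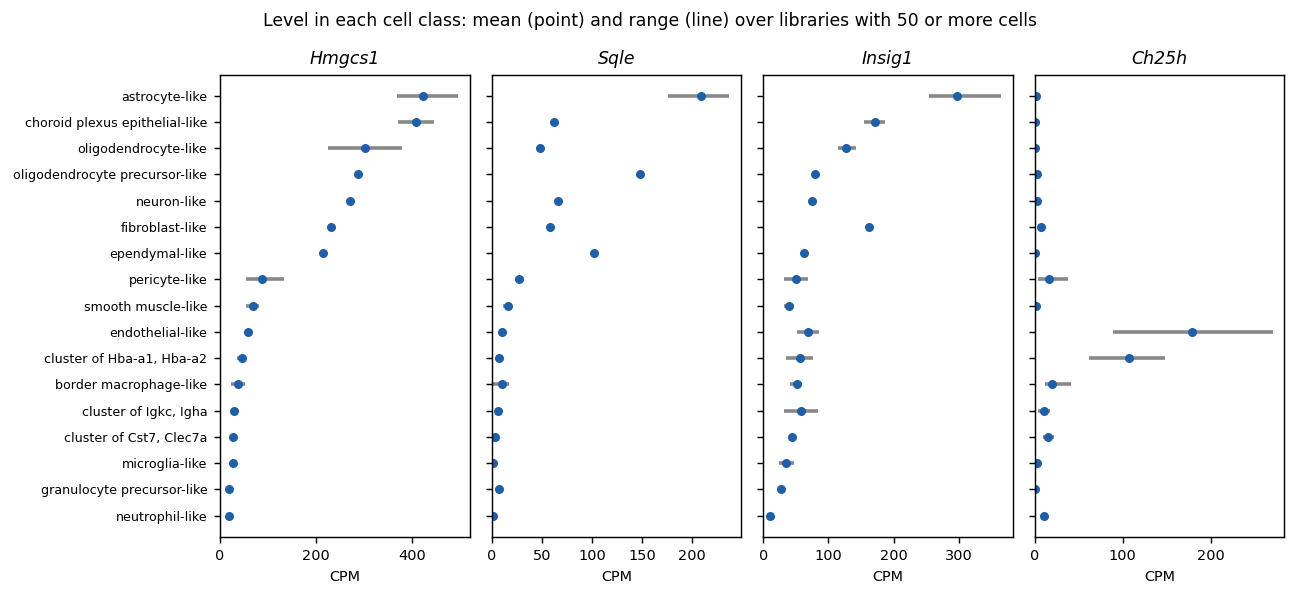
Points give the mean level, in CPM, and lines the range over libraries with at least 50 cells of the class, for Hmgcs1, Sqle, Insig1 and Ch25h in 17 classes ordered by Hmgcs1. The 3 genes of the synthesis group are highest in astrocyte-like cells, and Ch25h in endothelial-like cells.

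The other synthesis and control genes kept astrocyte-like cells in first place. Means there were 265 CPM for Idi1, 200 for Fdft1, 208 for Sqle, 46.5 for Lss, 163 for Srebf2 and 297 for Insig1, over 4 libraries. In astrocyte-like cells 7 of the 8 members could be tested and none passed with age or label by edgeR, with 0 and 1 at an unadjusted p under 0.05; 0.884% of 9507 genes passed with age and 0.252% with the label. Astrocyte-like cells numbered only 127 to 266 per library. Oligodendrocyte-like cells gave 47.5 to 48.2 CPM for Sqle in the 3 libraries with enough cells.

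Microglia-like cells were low in every synthesis gene and shared the difference of Insig1 with age. Insig1 stood there at 24.7 CPM in young and 39.6 in old WT Cre, and 25.8 and 47.4 in the young and old libraries labelled EC-K4KO, and it rose with age by 1.05 ± 0.17 (edgeR, adjusted p = 5.78e-09). Both old libraries were above both young ones. The class joined a cluster led by Tnf and Ccl3, with 84, 109, 830 and 386 cells in library order, and one led by P2ry12 and Gpr34, with 243, 464, 353 and 199, so that most young cells lay in the latter and most old cells in the former. Within the cluster led by P2ry12, Insig1 was at 20.7, 24.3, 36.9 and 47.0 CPM in library order, with age ratios of 0.82 (interval 0.16 to 1.54) and 0.96 (interval 0.33 to 1.56). Within the one led by Tnf it was at 33.1, 30.3, 40.4 and 47.6 CPM, with ratios of 0.26 (interval -0.37 to 1.01) and 0.63 (interval 0.02 to 1.32). These splits were added after the data were seen. In that class 1 of 7 tested members passed with age, against 26.6% of 10882 genes, and 1 with the label, against 1.2%. The latter was Ch25h (log2 2.26 ± 0.56, adjusted p = 0.00788), on only 2, 16, 7 and 16 UMIs in library order, and the part of free RNA in so few UMIs was not tested. In smooth muscle-like and pericyte-like cells none of 7 tested members passed with age or label by edgeR (unadjusted p under 0.05 for 0 and 0 in the former and for 0 and 2 in the latter), against 5.01% of 11267 genes and 0.0119% of 8420 genes for age and 0.178% and 0% for the label.

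Outside the cells named endothelial-like, Ch25h was highest in a cluster led by the haemoglobin genes Hba-a1 and Hba-a2, at 61.7 to 148 CPM, whose cells had medians of 8611 to 20756 UMIs. That cluster was left unnamed because both the endothelial list (7 of 8 markers) and the erythroid list (5 of 5) met the naming rule. Its endothelial markers summed to 11779 to 14603 CPM and its Klf4 stood at 1371 to 2935 CPM. Border macrophage-like cells followed at 11.7 to 40.7 CPM, on 4 to 27 UMIs, and pericyte-like cells at 3.71 to 38.2 CPM, on 3 to 46 UMIs. Astrocyte-like cells, the richest in synthesis transcripts, had 0 to 4 Ch25h UMIs per library. The ranges of endothelial-like cells (89.2 to 270 CPM) and of the haemoglobin cluster overlapped, and those of endothelial-like and all named classes did not.

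The genes whose levels followed the members most closely were sought over 43 class sums of these libraries, among 16437 genes that reached 10 CPM in at least 1 sum. For Ch25h they were Slfn5 (Pearson r = 0.88 of log2 CPM), Acvrl1 (0.87), Ifnar1 (0.85), Tbc1d4 (0.84) and Flt1 (0.84). For Hmgcs1 they were Fdft1 (0.92), Epdr1 (0.92), Pfn2 (0.92), Gstm5 (0.91) and Aldh5a1 (0.90). Among the other members, Sqle reached 0.89 with Hmgcs1, Idi1 0.87, Lss 0.86, Insig1 0.83 and Srebf2 0.68, while Ch25h gave -0.43. The sums share libraries and depth, and the correlations describe differences between classes.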

How the data were processed

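Single-cell RNA-seq of 4 mouse brain libraries was analysed from the whole-number UMI counts per gene and cell that the authors deposited. Per the submitters' processing notes these came from Cell Ranger (6.0.2 in the matrix headers) with mm10/GRCm38, and Seurat was also named; raw counts were not normalized. Cells with at least 500 genes, 1000 UMIs and at most 10% mitochondrial UMIs were kept, and the top-scoring Scrublet doublets (0.8% per 1000 cells) were removed, 977 of 21714. Scrublet's own threshold called 357. Cells were clustered with scanpy 1.11.5 (2000 variable genes without the members and lists, 30 components, 20 neighbours, Leiden resolution 1) and classes named from fixed markers. The scoring of clusters and the minimum size of a segment were set after clusters had been seen.

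Levels (CPM) are UMIs per 1000000 UMIs over summed cells, with exact Poisson intervals; shares have exact binomial (Clopper-Pearson) intervals. Pairwise log2 ratios add 0.5 UMI and carry exact conditional intervals, with no p since there was 1 library per group. A fixed limit of 3 counts was used for shares at 0. All intervals are at 95% and cover counting error only. The test was edgeR 4.0.16 in R 4.3.3 (quasi-likelihood, TMM, terms for age and label, Benjamini-Hochberg over all genes, threshold 0.05). DESeq2 1.42.0 was the alternative. The error behind the p-values is the departure of the 4 libraries from additive terms, shared over genes, and may be technical. An age difference that varies with the label counts as error, and variation between preparations of 1 group is not measured. On simulated counts of 14927 genes for the age comparison edgeR found 100 of 100 genes changed 2-fold and 100 of 100 changed 4-fold. Of the gene IDs, 55394 of 55487 were matched to GENCODE M21.

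The members and lists were chosen with earlier results of these data known. The members are given in full, other lists as counts with up to 4 genes of highest level and those that passed; likeness names the 5 highest correlations.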

Additional observations from a re-analysis of the deposited data

Results flagged for a closer look

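Some members differed in direction between ages or labels, with both counting intervals on opposite sides of 0. None of these differences was tested, because each group had 1 library. Idi1 in endothelial-like cells had a label log2 ratio of 0.17 (interval 0.06 to 0.29) among young and -0.23 (interval -0.39 to -0.08) among old libraries, a difference of -0.41. Hmgcs1 in smooth muscle-like cells had label ratios of 0.38 and -0.48 and age ratios of 0.28 in WT Cre and -0.57 between the libraries labelled EC-K4KO, both a difference of -0.85 over the same 4 values. Insig1 in the same cells behaved alike, with label ratios of 0.30 and -0.54 and age ratios of 0.44 and -0.40, a difference of -0.84. The library labelled young EC-K4KO held 1390 smooth muscle-like cells, against 295 to 571 in the others. Hmgcs1 in pericyte-like cells went the other way, with label ratios of -0.66 among young (interval -1.17 to -0.15) and 0.80 among old libraries (interval 0.20 to 1.38), a difference of 1.46.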

How the results depend on the processing

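No paired analysis was possible because each group had 1 library and the labels give the same replicate number, 1, to all 4. A fit for oligodendrocyte-like cells was not run, since 1 library held 39 of them. The number of members passing with age was 3, or 2 with clustering at resolution 2 and in arterial cells alone, and 5 in venous cells alone; with the label it was 1, but 0 with clustering at resolution 2 and 0 in arterial cells alone (segment settings were chosen after seeing the data). Over all genes, 2731 passed with age, 921 at resolution 2, 1189 with thinned cells, 991 with DESeq2 and 1237 in capillary cells; 241 passed with the label, 789 without a filter on low counts, 94 with stricter cells, 3 at resolution 2, 113 with DESeq2, 388 without the cluster led by Ackr1 and 159 in capillary cells. The cause was not tested. Thinning moved the median of the 7 genes other than Ch25h to 0.12 for the label among young and -0.41 among old libraries. Idi1 lost its age call at resolution 2 (adjusted p = 0.0689); Ch25h and Insig1 kept theirs in all 10 fits of endothelial-like cells.

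Terms of the edgeR fit that had not passed changed sign as follows. In arterial cells alone, age gave -0.26 for Hmgcs1, -0.15 for Sqle, -0.0078 for Srebf2 and 0.026 for Fdft1, and the label 0.10 for Srebf2. In venous cells alone, the label gave -0.015 for Hmgcs1 and -0.19 for Idi1, and age 0.014 for Lss and 0.25 for Fdft1. In capillary cells alone, the label gave -0.11 for Idi1 and -0.065 for Insig1. With thinned cells, the label gave -0.60 for Sqle, -0.25 for Idi1 and 0.0025 for Srebf2, and age 0.22 for Fdft1. Age for Fdft1 was also 0.050 with stricter cells, 0.040 at resolution 2 and 0.027 with classes by marker UMIs. Of 288 alternative values of single ratios, 244 stayed within the main interval and none past 0.5 changed sign. Depth limits Lss, Sqle and Fdft1 most, at 31 to 474 UMIs per library.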
